A study of Mus musculus with 2 samples.

Results

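The nuclear-encoded subunits of the oxidative phosphorylation machinery were examined in DNase-seq data from mouse skeletal muscle. Members were chosen by gene symbol among protein-coding genes of GENCODE on chromosomes 1 to 19 and X. They were the genes with Nduf followed by a, b, c, s or v and a digit, Sdha to Sdhd, and the genes with the prefixes Uqcr, Cox4 to Cox8 and Atp5. This gave 84 of 21728 protein-coding genes, namely 37 for complex I, 4 for complex II, 8 for complex III, 18 for complex IV and 17 for complex V. The symbols alone decide membership, with no threshold on a measured value. The literal rule leaves out Ndufab1, Cyc1 and the assembly factors and keeps genes of other or debated roles. Among these are Cox7a2l, which takes part in joining complexes III and IV, Atp5s, a coupling factor, and Ndufa4, which carries a complex I symbol but is a subunit of complex IV. Ndufa4l2, an isoform of Ndufa4, is likewise counted under complex I by its symbol alone.

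The respiratory chain passes electrons from NADH and succinate to oxygen and pumps protons across the inner mitochondrial membrane, and ATP synthase uses that gradient to make ATP. Complexes I, II, III and IV are NADH dehydrogenase, succinate dehydrogenase, the cytochrome bc1 complex and cytochrome c oxidase, and complex V is ATP synthase. Most of their subunits are encoded in the nucleus and are needed in nearly every cell. Several cytochrome c oxidase subunits exist as a ubiquitous form and a form found in heart and skeletal muscle. The transcription factors NRF1, GABP, the estrogen-related receptors (ERR), YY1 and the coactivator PGC-1 are known regulators of these genes.

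DNase I cuts DNA where chromatin is open, and sequencing the cut ends maps accessible sites as peaks. Within a peak, a footprint is a short stretch that was cut less than its surroundings, as happens under a bound protein. The tissue was gastrocnemius, a mostly fast calf muscle, from female B6CASTF1/J mice, a first-generation cross of C57BL/6J with CAST/EiJ, aged 2 months, for which the labels name no treatment. The 2 libraries are numbered as biological replicates 1 and 2. They come from separately numbered biosamples but carry 1 donor identifier in common, so the SD between them may not measure the spread between animals. The labels give no second condition, and so no test between groups was possible and every result is a description. Whole tissue was used, and opening in fewer cells cannot be told apart from weaker opening in each cell.

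Replicate 1 had 66984 peaks and 153010 footprints, and replicate 2 had 258342 peaks and 338761 footprints. Sequencing depth is unknown and the scale of the deposited peak signal is not stated. Each peak was therefore ranked within its own library, and its signal percentile is the share of that library's peaks with a lower signal. A given percentile marks a less selective rank in replicate 2, whose list is longer. The label of the tissue held against its markers: all 10 skeletal muscle markers, among them Acta1, Ckm and Myod1, had a promoter peak in both libraries, while 0 of 8 heart and 0 of 5 liver markers did. Of 5 endothelial markers 4 did, of 4 macrophage markers 0 did, and of 4 brown fat markers 3 did but Ucp1 had none in either library. Counted in replicate 2, with its longer list, 3 macrophage, 2 heart, 1 liver and all 5 endothelial markers had a promoter peak. In replicate 1 these counts were 0, 1, 0 and 4.

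A promoter peak was a peak with its midpoint no more than 1 kb from an annotated transcript start. Such a peak was present in both libraries for 79 of the 84 subunit genes, against 60.5% of all protein-coding genes. In replicate 1 alone 79 had one (61.2% of all genes), and in replicate 2 alone 81 (71.4% of all genes). The 5 genes without it in both libraries were Cox4i2, Cox6b2, Cox7b2, Cox8c and Ndufa4l2, which are all tissue-restricted or inducible isoforms. The strongest promoter peak of replicate 1 overlapped that of replicate 2 in 77 of the 79 genes, the exceptions being Atp5a1 and Ndufa4.

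The strongest promoter peak of a subunit gene had a median signal percentile of 91.3 in replicate 1 and 97.6 in replicate 2, which is 94.5 ± 4.45 (SD, n = 2). Over all genes with a promoter peak the medians were 87.7 and 96.1, or 91.9 ± 5.93 (SD, n = 2). The gap between members and all genes was thus smaller than the gap between the libraries, but it had the same sign in each. Ranked among genes instead of among peaks, the median subunit stood at percentile 60.9 in replicate 1 and 64.3 in replicate 2. Above the median gene lay 55 of 79 members in replicate 1 and 61 of 81 in replicate 2. In 48 of 84 members the promoter peak was among the top 10% of peaks in both libraries, against 26.6% of all genes. That count rests on replicate 1, since replicate 2 alone placed 78 members there, and 51.7% of all genes. The order of the members was alike in the libraries, with Spearman's rho 0.935 and Pearson's r 0.927 across 79 genes. Over all 13151 genes with both peaks Spearman's rho was 0.964. Genes are not replicates, and both libraries share the same tissue and base composition.

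**Figure D1:**
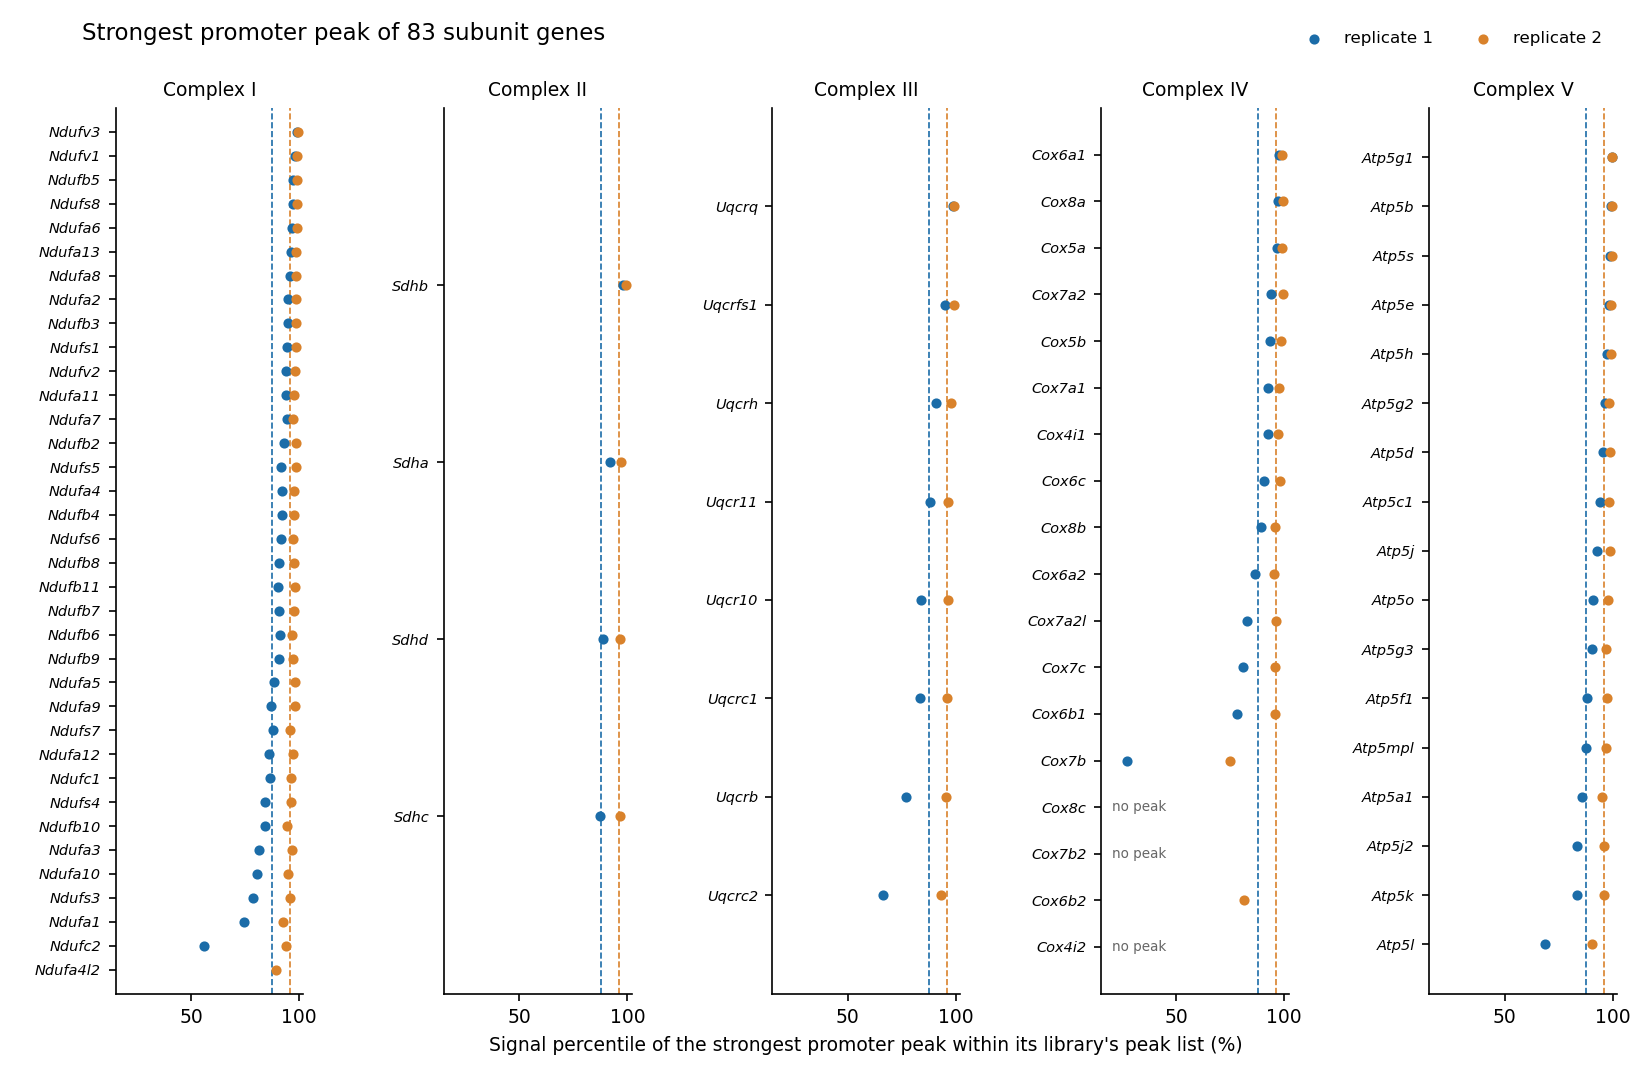
Signal percentile of the strongest promoter peak within its library's peak list (horizontal axis, percent) for 83 of the 84 genes, by complex, in replicate 1 (blue) and replicate 2 (orange); dashed lines mark the median of all genes with a promoter peak, 87.7 and 96.1. Cox4i2, Cox7b2 and Cox8c had no peak, and Cox7b stands far to the left of the other members in both libraries.

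Complex I, as counted by symbol, had a promoter peak in both libraries for 36 of its 37 genes, with median percentiles of 91.9 and 97.8. The exception was Ndufa4l2. Highest was Ndufv3, a subunit of the NADH-oxidising module, with signals of 9.64 and 27.3 in the 2 libraries, at percentiles 99.3 and 99.8. Next was Ndufv1, which binds the flavin cofactor, with signals of 6.76 and 14.0 and percentiles of 98.1 and 99.3. At the other end stood Ndufc2, a membrane-arm subunit, with signal 0.837 at percentile 56.2 in replicate 1 and 2.85 at percentile 93.9 in replicate 2. Ndufa1, an X-linked membrane-arm subunit, had signals of 1.33 and 2.35, at percentiles 74.4 and 92.5. The high genes were high in both libraries, while the low ones were spread far more widely in replicate 1 than in replicate 2.

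All 4 genes of complex II, the succinate dehydrogenase that also serves the citric acid cycle, had a promoter peak in both libraries. Sdhb, the iron-sulfur subunit, was highest, with signals of 6.82 and 15.6 at percentiles 98.1 and 99.4. Sdha, the flavoprotein, had signals of 3.31 and 5.65 at percentiles 92.2 and 97.2. The membrane anchors Sdhd and Sdhc were lower, Sdhd at percentiles 88.9 and 96.8 and Sdhc at 87.3 and 96.5. The order of the 4 genes was the same in both libraries.

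In complex III all 8 genes had the peak in both libraries, with median percentiles of 86.1 and 96.4. Uqcrq, a small subunit, had signals of 7.69 and 12.7 at percentiles 98.6 and 99.1. Uqcrfs1, the Rieske iron-sulfur protein, had signals of 4.34 and 12.0 at percentiles 95.1 and 99.0. Lowest were Uqcrc2, a core protein, at percentiles 66.2 and 93.2, and Uqcrb, at 76.9 and 95.4. The median of the complex fell below that of all genes in replicate 1 and above it in replicate 2.

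Complex V, with 17 genes, had the peak in both libraries for every member and the highest medians of the 5 complexes, 92.8 and 98.2. The strongest promoter peak of all 84 genes belonged to Atp5g1 in both libraries, with signals of 14.7 and 29.1 and percentiles of 99.9 and 99.9. Atp5g1, Atp5g2 and Atp5g3 encode the same mature subunit c, the rotating ring of the enzyme, from separate genes. Atp5g2 had signals of 5.19 and 8.05 at percentiles 96.5 and 98.2, and Atp5g3 2.86 and 5.27 at percentiles 90.2 and 96.9. The 3 genes kept the order Atp5g1, Atp5g2, Atp5g3 in both libraries. Atp5b, the catalytic beta subunit, had signals of 9.03 and 20.8 at percentiles 99.1 and 99.7. Atp5l and Atp5k, small membrane subunits, were lowest, Atp5l at 68.7 and 90.4 and Atp5k at 83.3 and 96.1.

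Complex IV had the peak in both libraries for 14 of 18 genes, with median percentiles of 91.6 and 97.0 among genes with a peak. Cox6a1 and Cox8a, both ubiquitous isoforms, led it and are described with their muscle partners. Cox6b1, the ubiquitous partner of Cox6b2, had signals of 1.52 and 4.09 at percentiles 78.1 and 95.9. The weakest promoter peak of any member with a peak in both libraries was at Cox7b, on the X chromosome, with signals of 0.463 and 0.740 at percentiles 27.1 and 74.9. The 3 X-linked members, Cox7b, Ndufa1 and Ndufb11, had median percentiles of 74.4 and 92.5. X-linked protein-coding genes with a promoter peak, 422 of 948 in replicate 1 and 536 in replicate 2, had medians of 73.8 and 91.1. Cox7b and Ndufa1 were thus low among the members in both libraries. Ndufb11, the third X-linked subunit, stood higher at 90.4 and 98.1, near the median member.

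The muscle isoforms Cox6a2, Cox7a1 and Cox8b each had a promoter peak in both libraries, and in each pair it ranked lower than that of the ubiquitous partner in both libraries. Their upstream sequences are shown because they differ in CpG content and in footprinted bases from those of Cox6a1 and Cox8a. The promoter peaks cover only a portion of them and extend past the start, and in replicate 1 the strongest peak of Cox8b begins at -14 relative to the start. Each runs 5′ to 3′ on the gene's own strand up to the base before the gene's outermost annotated start, on mm10 from the RefSeq assembly GRCm38.p6. Capitals mark bases that lie in a footprint of both libraries. The animals are a cross with CAST/EiJ, whose allele may differ from this reference sequence.
Cox6a2, chr7:128206388-128206587, minus strand: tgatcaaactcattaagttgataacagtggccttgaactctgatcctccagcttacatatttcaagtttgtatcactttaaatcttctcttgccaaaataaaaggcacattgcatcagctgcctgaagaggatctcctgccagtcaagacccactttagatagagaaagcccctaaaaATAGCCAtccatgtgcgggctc
Cox7a1, chr7:30183944-30184143, plus strand: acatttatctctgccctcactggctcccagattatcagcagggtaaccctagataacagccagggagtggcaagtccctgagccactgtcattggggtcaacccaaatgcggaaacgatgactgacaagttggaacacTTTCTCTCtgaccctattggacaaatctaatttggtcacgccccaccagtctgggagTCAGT
Cox8b, chr7:140900447-140900646, minus strand: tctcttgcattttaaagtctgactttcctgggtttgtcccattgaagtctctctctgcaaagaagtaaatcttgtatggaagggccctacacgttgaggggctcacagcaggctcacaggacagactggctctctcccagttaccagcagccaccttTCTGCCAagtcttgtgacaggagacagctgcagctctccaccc

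Cox6a2, at chr7:128205435-128206387 on the minus strand, had signal 2.27 at percentile 86.5 in replicate 1 and 3.64 at percentile 95.3 in replicate 2. Its partner Cox6a1, at chr5:115345642-115348981 on the minus strand, had signals of 6.00 and 12.7 at percentiles 97.4 and 99.1. The muscle gene minus its partner was -10.9 percentile points in replicate 1 and -3.84 in replicate 2, with a signal 0.378 and 0.287 times that of the partner. As the scale of the signal is not stated, signal ratios in this and the other pairs need not be fold differences in opening. Both genes encode subunit VIa of cytochrome c oxidase.

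Cox8b, at chr7:140898945-140900446 on the minus strand, had signals of 2.72 and 3.89 at percentiles 89.4 and 95.6. Its partner Cox8a, at chr19:7215153-7217616 on the minus strand, had signals of 5.81 and 13.9 at percentiles 97.2 and 99.3. The muscle gene minus its partner was -7.78 and -3.62 percentile points, with signal ratios of 0.469 and 0.280.

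Cox7a1, at chr7:30184144-30186078 on the plus strand, had signals of 3.39 and 6.46 at percentiles 92.5 and 97.6. Its partner Cox7a2, at chr9:79755361-79759878 on the minus strand, had signals of 3.74 and 13.5 at percentiles 93.6 and 99.2. This pair differed least, with -1.17 and -1.59 percentile points and signal ratios of 0.906 and 0.480. Cox7a1 was the 1 muscle isoform with a promoter peak in the top 10% in both libraries.

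Over the 3 pairs the muscle isoform minus its ubiquitous partner averaged -6.62 percentile points in replicate 1 and -3.02 in replicate 2, or -4.82 ± 2.55 (SD, n = 2). With each library cut to the same number of strongest peaks the difference was -9.13, and with the shorter peak lists it was -8.40, so its size but not its sign moved with the list. Set against all genes, Cox6a2 and Cox8b lay near the median gene (percentiles 46.9 and 54.9 among genes in replicate 1, 44.6 and 46.6 in replicate 2). Cox7a1 stood higher, at percentiles 65.1 and 64.2 among genes. The ubiquitous genes lay at percentiles 69.7 or higher among genes in both libraries.

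**Figure D2:**
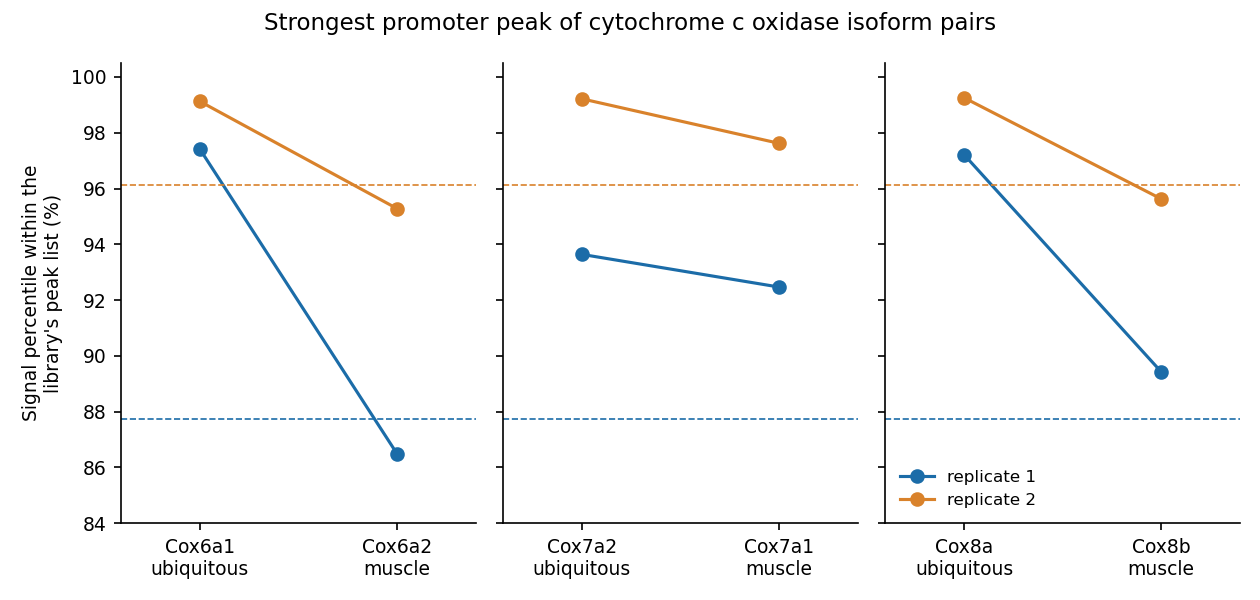
Signal percentile of the strongest promoter peak (vertical axis, percent, not starting at 0) of the ubiquitous and the muscle isoform of 3 cytochrome c oxidase subunits in replicate 1 (blue) and replicate 2 (orange); dashed lines mark the median gene. All 6 lines fall from the ubiquitous to the muscle isoform, with differences from -1.17 to -10.9 percentile points.

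For comparison, the sequences upstream of Cox6a1 and Cox8a are given in the same form. That of Cox6a1 stops at 148 bases, where an exon annotated upstream begins.
Cox6a1, chr5:115348982-115349129, minus strand: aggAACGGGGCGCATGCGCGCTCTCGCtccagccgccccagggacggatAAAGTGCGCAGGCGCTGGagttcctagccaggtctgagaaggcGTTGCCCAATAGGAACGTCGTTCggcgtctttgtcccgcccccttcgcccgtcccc
Cox8a, chr19:7217617-7217816, minus strand: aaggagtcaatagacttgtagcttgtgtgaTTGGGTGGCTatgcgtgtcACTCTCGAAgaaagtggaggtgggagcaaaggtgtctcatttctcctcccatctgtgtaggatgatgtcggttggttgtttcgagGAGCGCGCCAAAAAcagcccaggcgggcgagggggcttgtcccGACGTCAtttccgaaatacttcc

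Upstream of Cox6a1, 65 of 148 bases lay in footprints of both libraries, and upstream of Cox8a 40 of 200. Upstream of Cox6a2 the count was 7 of 200, for Cox7a1 13 of 200 and for Cox8b 7 of 200. Upstream of Cox7a2 it was 0 of 200, and its peaks lay mostly over the start and the first exon. The consensus letters searched for NRF1, GCGCANGCG with N for any base, occur at Cox6a1 with their last bases at -86 and, on both strands of a palindrome, at -130 and -131 relative to the start. These stretches lay in footprints of both libraries. Upstream of Cox6a2, the letters searched for MEF2, TATTTNTA, occur on the opposite strand with the base nearest the start at -20, and the footprint in capitals covers their end. The letters of the E-box, CAGCTG, the core bound by MYOD-type factors, occur at -80 upstream of Cox6a2 and at -14 upstream of Cox8b, outside the bases footprinted in both libraries, although a footprint of replicate 2 covers that of Cox6a2. Upstream of Cox7a1 the NFY letters CCAAT occur at -106, in a footprint of replicate 1 only, and at -43, in no footprint. The ubiquitous partners hold them too, at -47 upstream of Cox6a1 and at -167 upstream of Cox8a. Those of Cox6a1 lay in footprints of both libraries, and those of Cox8a did so except for their outermost base. The letters searched for SP and KLF, GGGGCGG, occur upstream of Cox6a1 at -15 and -110, in no footprint.

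**Figure D3:**
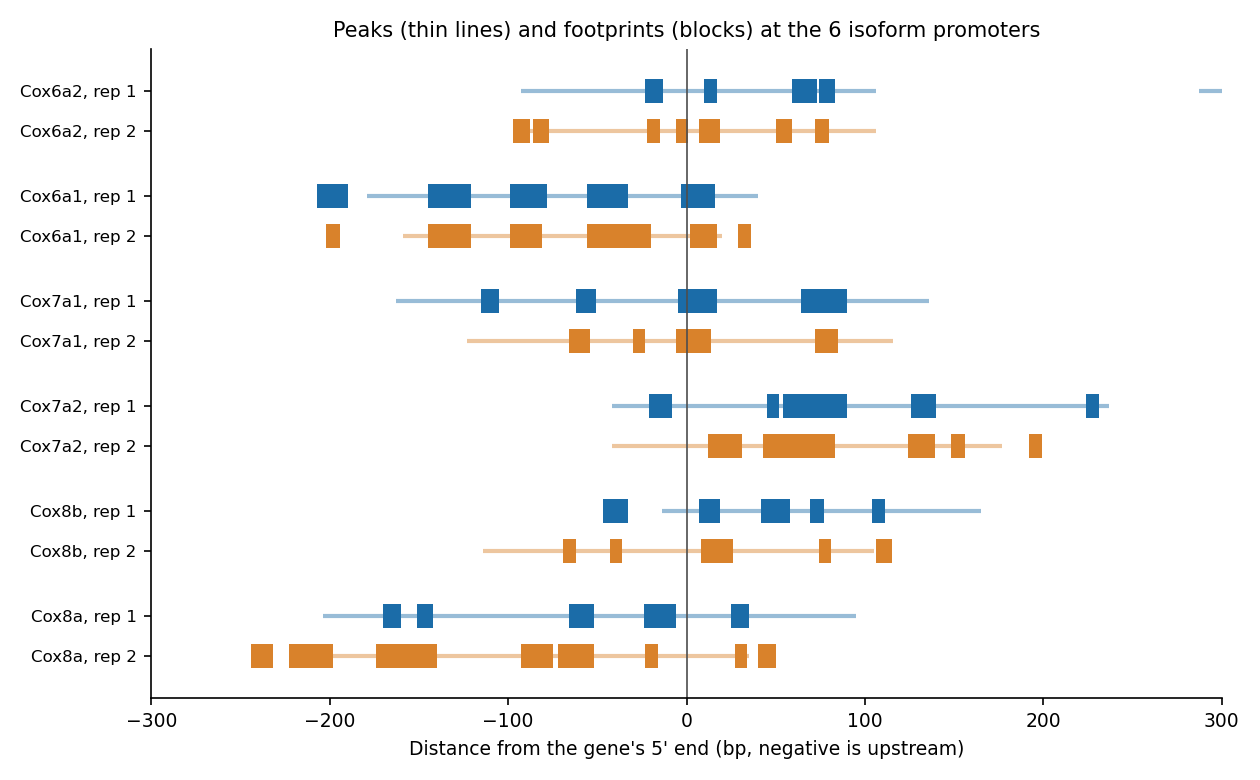
Peaks (thin lines) and footprints (blocks) at the 3 muscle and 3 ubiquitous isoform genes by distance from the gene's 5′ end (horizontal axis, base pairs, negative is upstream), within 300 bp of it, with replicate 1 in blue and replicate 2 in orange. Peaks cover the start in all 6 genes in both libraries, and within the plotted range the Cox6a1 and Cox8a footprints reach farther upstream than those of Cox8b.

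The promoters of the muscle isoforms were poor in CpG. The ratio of observed to expected CpG over 1 kb centred on the outermost start was 0.260 for Cox6a2, 0.278 for Cox7a1 and 0.245 for Cox8b. The partners Cox6a1, Cox7a2 and Cox8a had ratios of 0.964, 0.803 and 0.693, and the groups did not overlap. The median was 0.715 over the 84 members and 0.558 over all genes. A low ratio was not particular to the muscle isoforms, since 11673 of 21728 genes and 19 of the 84 members had one under 0.6. Among members, Cox7a2l (0.136), Ndufa4l2 (0.186) and Atp5j2 (0.220) had lower ratios than all of the muscle isoforms. Footprint counts were mixed. Counted over all promoter peaks of a gene, Cox6a2 had 6 footprints in replicate 1 and 7 in replicate 2, Cox8b 6 and 8, and Cox7a1 4 and 4. Cox6a1 had 4 and 4, Cox8a 5 and 5, and Cox7a2 5 and 4. In the strongest peak alone, Cox6a2 had 4 and 7, Cox8b 4 and 4, and Cox7a1 4 and 4, so the larger totals of Cox8b rest on its weaker peaks. Against its partner, the muscle gene then had more footprints only for Cox6a2 in replicate 2, and fewer for Cox8b in both libraries and for Cox7a1 in replicate 1.

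The tissue-restricted and inducible isoforms differed from the muscle isoforms. Cox7b2 and Cox8c, which are known from testis, and Cox4i2, known from lung and induced by low oxygen, had no promoter peak and no footprint in a 1 kb promoter in either library. Segments of raised cut rate, listed by the authors up to a false discovery rate of 0.05, covered 0% of the promoter bases of Cox4i2 and Cox8c in both libraries and 1.05% and 0% of those of Cox7b2, against medians of 22.2% and 30.8% over the 84 members. The ubiquitous partners of these 3 genes had a promoter peak in both, among them Cox4i1 with signals of 3.40 and 5.39 at percentiles 92.5 and 97.0. Cox7b, the partner of Cox7b2, had the weak peak described above, at percentiles 27.1 and 74.9. Cox6b2, a further testis form, had a peak in replicate 2 only, with signal 0.981 at percentile 81.4 and 2 footprints, where Cox6b1 stood at 95.9. Ndufa4l2, which is induced by low oxygen, likewise had a peak in replicate 2 only, with signal 1.69 at percentile 89.4 and 1 footprint, where Ndufa4 stood at 97.8. As replicate 2 lists many more peaks, a peak in it alone was not tested against a difference between the libraries. Around Cox4i2, 13 peaks of replicate 2 and 1 of replicate 1 lay in the gene body and 10 kb on either side, though none at a start. The window of Cox8c held none in either.

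Footprints were found in promoter peaks of 78 members in both libraries, against 58.7% of all genes. Genes without a promoter peak count there as having no footprint. Of the genes with a promoter peak in both libraries, 78 of 79 members and 12746 of 13151 genes had a footprint in both. The 1 gene with a peak in both but a footprint in only 1 of them was Ndufb7, with 0 in replicate 1 and 3 in replicate 2. The median was 4 footprints per member in replicate 1 and 5 in replicate 2, with 3 and 3 over all genes. Genes without a promoter peak enter both medians as 0, and they are a larger share of all genes than of members. Ndufs7, an iron-sulfur subunit of complex I, had the highest mean, with 12 and 14. Cox4i1 had 12 and 10.

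**Figure D4:**
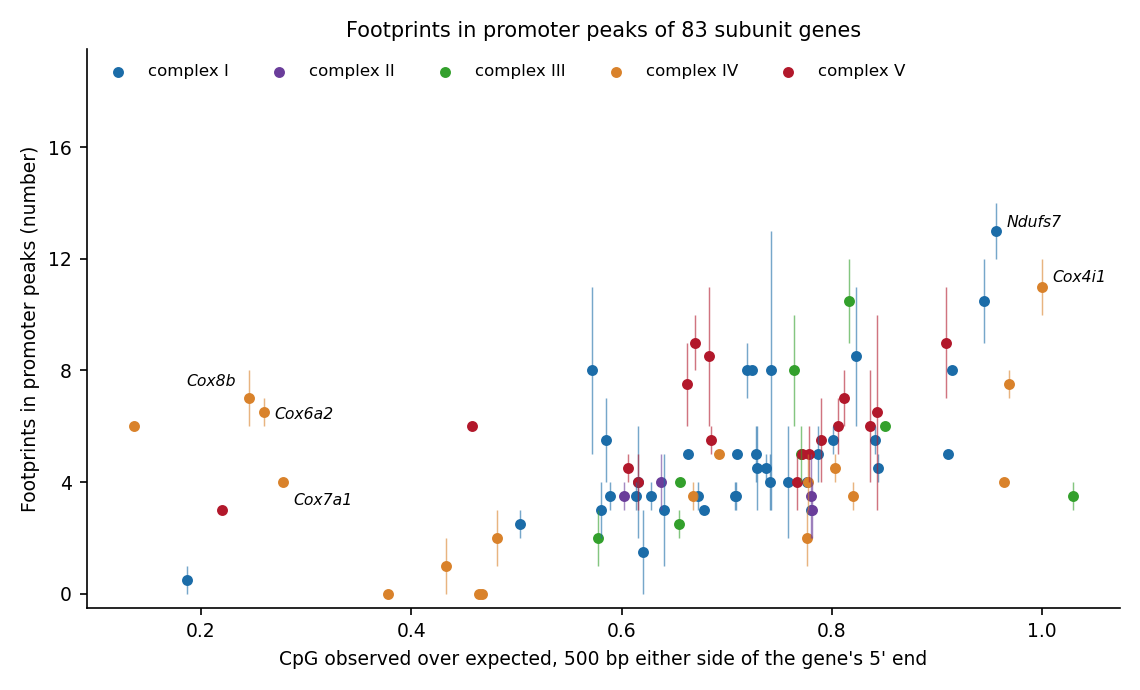
Number of footprints in promoter peaks (vertical axis) against the CpG ratio around the outermost start (horizontal axis) for 83 of the 84 genes, coloured by complex; points are means of the 2 libraries and vertical lines join the libraries. Cox6a2, Cox7a1 and Cox8b lie at CpG ratios of 0.245 to 0.278 with 4 to 8 footprints a library.

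The strongest promoter peaks of the subunits sat close to a start. The median distance from midpoint to nearest start was 28 bp in both libraries, against 62 and 64 bp over all genes with a promoter peak. Within 100 bp lay 84.8% of member peaks in replicate 1 and 88.9% in replicate 2, against 66.0% and 63.8%. Members have a median of 4 annotated starts and all genes 3, and more starts shorten such distances. Median peak widths were 260 and 200 bp for members and the same for all genes. The median member had 2 peaks shared by both libraries in the gene body and 10 kb on either side, as did the median gene, in windows of 27.4 kb and 37.4 kb. Counted in replicate 2 alone the medians were 6 for members and 5 for all genes. Atp5b had 9 such peaks and Ndufs7 had 8. Atp5o had 22, but 2 annotation records joined under that symbol make its window much longer.

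Consensus letters were searched on both strands of the 300 bp centred on the shared promoter peak, in 79 members and in 13021 genes. A match is a run of letters and not evidence of binding. The YY1 letters AANATGGCG occurred in 22 members (27.8%), against 6.39% of all genes. The ERR letters AAGGTCA occurred in 11 (13.9%), against 2.17%. NRF1 letters occurred in 22 (27.8%), against 15.3%, and the ETS letters CCGGAAG, the core bound by GABP, in 19 (24.1%), against 19.4%. At least 1 of these 4 motifs was present in 53 members (67.1%) and in 36.6% of all genes. Restricted to genes with a CpG ratio of at least 0.6, the shares for members and all genes were 29.2% and 7.55% for YY1, 16.9% and 1.84% for ERR, 27.7% and 18.2% for NRF1, and 27.7% and 22.5% for ETS. The counts for YY1 and ERR depend on the window. In 150 bp they were 8 (3.13% of genes) and 4 (1.04%), and in 500 bp they were 25 (8.09%) and 18 (4.68%).

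Of the 8 other motifs, 6 were found in a smaller share of members than of all genes in the 300 bp windows. For the TATA box the 2 shares were nearly equal, and MEF2 rests on 1 member. For the SP and KLF and NFY letters the smaller share held under every alternative run. For the TEAD letters it also held, but in 150 bp windows the shares were level, at 5.06% and 5.08%. For the E-box, the TATA box and MEF2 it did not hold. In 500 bp windows the E-box occurred in 27.8% of members and 26.9% of genes. In 150 bp windows TATA occurred in 3.80% and 2.09%, and MEF2 in 1.27% and 0.730%. The SP and KLF letters GGGGCGG occurred in 34.2% of members and 47.8% of genes, and the NFY letters CCAAT in 31.6% and 39.6%. The E-box occurred in 15.2% and 17.9%, the TEAD letters GGAATG in 7.59% and 10.1%, and the TATA box, searched as TATAAA, in 3.80% and 3.83%. The MEF2 letters, which can overlap a TATA box, occurred in 1 member, Cox6a2 (1.27%), and in 1.59% of genes. In larger shares of members than of all genes were the 2 remaining motifs. The CREB letters TGACGTCA occurred in 6 members (7.59%, against 3.70%) and the ZNF143 letters ACTACAA in 7 (8.86%, against 4.19%).

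**Figure D5:**
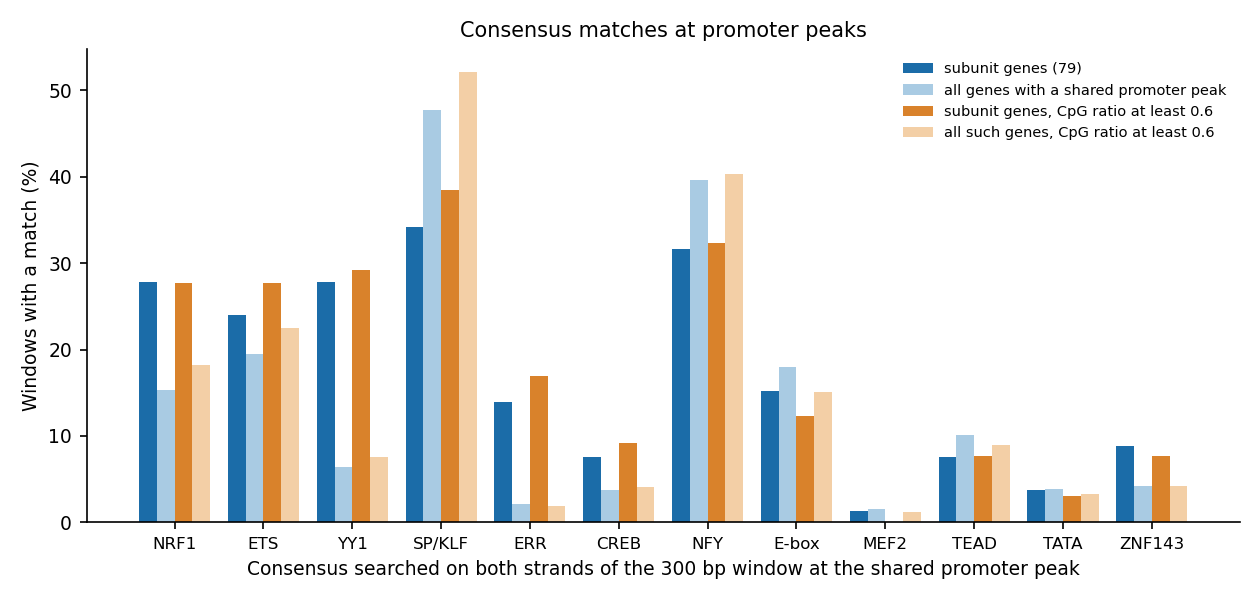
Share of 300 bp promoter-peak windows with a match to each of 12 consensus motifs (vertical axis, percent) for the 79 subunit genes and for all 13021 genes with a shared promoter peak, and for the genes of each with a CpG ratio of at least 0.6. The widest gaps in favour of the subunits are at YY1 (27.8% and 6.39%), NRF1 (27.8% and 15.3%) and ERR (13.9% and 2.17%), and the SP/KLF and NFY bars are lower for the subunits.

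The ERR matches are shown because they gathered at the start and in complex V. Of the 11 matches, 10 had their midpoint within 50 bp of a start (90.9%), against 28.7% of the matches over all genes. For the ETS letters these shares were 82.6% and 60.0%, and for the NRF1 letters 53.1% and 50.1%. By complex the ERR matches fell in 6 of 17 complex V genes and in 2 of 36 complex I genes. They fell in 1 of 4 complex II, 1 of 8 complex III and 1 of 14 complex IV genes. In complex V the NRF1 letters occurred in 8 of 17 genes and the ETS letters in 6. Shown are 10 of them with 8 bases on either side, 5′ to 3′ on the strand of the match, with the match in capitals.
Atp5e, chr2:174464063-174464085, plus strand: gcagcaggAAGGTCAggcctgag
Atp5g3, chr2:73911364-73911386, plus strand: agacgctcAAGGTCActttgtaa
Atp5k, chr5:108434362-108434384, minus strand: ccggcgcgAAGGTCAcggacaaa
Atp5l, chr9:44920741-44920763, plus strand: ccatttccAAGGTCAggctgccc
Atp5mpl, chr12:111966967-111966989, plus strand: gaatgggaAAGGTCAcagagcac
Cox8a, chr19:7217540-7217562, plus strand: accagtccAAGGTCAgggagtca
Ndufb4, chr16:37654409-37654431, minus strand: tgagcctgAAGGTCAgactcgag
Ndufs6, chr13:73328419-73328441, plus strand: gccggcggAAGGTCAgcaccgcc
Sdhd, chr9:50603799-50603821, plus strand: gagggctcAAGGTCActctacaa
Uqcrq, chr11:53430937-53430959, minus strand: gctacacgAAGGTCAggccacgc

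The match at Uqcrq, which lies -117 bp from the start, was the 1 of these 10 within a footprint of both libraries, and 3 of 10 lay in a footprint of either. Footprints at ERR letters were uncommon in general, with 2 of 11 member matches in replicate 1 and 2 of 11 in replicate 2, against 16.1% and 14.3% of matches over all genes. The match not shown is at Atp5a1, the alpha subunit of ATP synthase.

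The YY1 matches are shown because many of them coincide with the start of the reading frame, whose ATG the searched letters contain. Of 23 matches in members 15 covered an annotated start codon on the same strand (65.2%), of the member or of a neighbouring gene. Over all genes 39.7% of 873 matches did so. The first 3 matches below cover a start codon and the other 3 do not.
Ndufs7, chr10:80249465-80249489, plus strand: ccgaggccAAGATGGCGgcgctggc
Sdhb, chr4:140961394-140961418, plus strand: caggagccAAAATGGCGgcgacggt
Uqcrc1, chr9:108936708-108936732, plus strand: gaagttagAAGATGGCGgcgtccgc
Atp5b, chr10:128083315-128083339, minus strand: caagactcAACATGGCGgaatccgg
Atp5g1, chr11:96075916-96075940, plus strand: ttcaacacAAAATGGCGaccaaggt
Ndufb11, chrX:20617814-20617838, minus strand: accaacacAAAATGGCGacgagaag

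In a footprint lay 11 of the 23 YY1 matches in replicate 1 and 9 in replicate 2, against 34.1% and 31.5% of matches over all genes. The matches upstream of Atp5g1 (-258 bp from the start) and Ndufb11 (-207 bp) and the one just inside Atp5b were each in footprints of both libraries. So were the start-codon matches of Ndufs7 and Ndufc1 and the nearer match of Uqcrh, which is off a start codon. Also off a start codon, the matches of Ndufs8, Ndufv2 and Uqcrfs1 lay in a footprint of neither library, and that of Ndufs1 in replicate 1 only. The start-codon match of Uqcrc1 lay in none either. YY1 letters occurred in 14 of 36 complex I genes, 4 of 8 complex III genes, 3 of 17 complex V genes and 0 of 14 complex IV genes.

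Most NRF1 matches lay in footprints. Of 32 matches in 22 members, 30 lay in a footprint in replicate 1 and 26 in replicate 2, against 78.4% and 69.0% of the 2412 matches over all genes. A high share was not particular to NRF1. Of 6 CREB matches in members 5 and 4 lay in a footprint, as did 80.8% and 79.2% of CREB matches over all genes. The examples show genes with several matches, Sdha and Ndufb4 with 3 each, and single matches at Atp5c1 and Cox6c. All 8 lay in a footprint in replicate 1, and all but the farthest upstream match of Sdha did so in replicate 2.
Sdha, chr13:74350234-74350258, minus strand: gactcggtGCGCAAGCGcagtctgt
Sdha, chr13:74350279-74350303, minus strand: ggcgtgttGCGCAGGCGcagaatct
Sdha, chr13:74350322-74350346, minus strand: tttacaggGCGCAGGCGcaccacca
Ndufb4, chr16:37654374-37654398, minus strand: tcatatccGCGCAGGCGcagatgtg
Ndufb4, chr16:37654431-37654455, minus strand: ttgtgcgcGCGCAGGCGcacttcct
Ndufb4, chr16:37654543-37654567, minus strand: gaagcagtGCGCACGCGcagaatac
Atp5c1, chr2:10080433-10080457, minus strand: gagctcccGCGCACGCGcactgagt
Cox6c, chr15:35938172-35938196, minus strand: cgactcttGCGCATGCGtgctgctg

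Many subunit genes share their promoter region with a neighbour. A start of another protein-coding gene on the opposite strand lay within 1 kb of a start in 32 of 84 members (38.1%), against 12.4% of all genes. The median distance between the nearest starts was 82 bp. Similar shares were found for mitochondrial ribosomal protein genes (42.3%), citric acid cycle enzymes (38.5%) and assembly factors (35.7%). Cytosolic ribosomal protein genes (20.5%), electron carriers and exchange proteins (16.7%) and regulators (9.09%) had lower ones. Atp5j, the coupling factor 6 subunit, lies 31 bp from Gabpa, which encodes the DNA-binding subunit of GABP, and the same peak ranked at percentiles 92.8 and 98.6 for both genes. Ndufb5 and Ndufs6 lie 20 and 29 bp from Mrpl47 and Mrpl36, which encode mitochondrial ribosomal proteins. Sdhd lies 98 bp from Timm8b, which encodes a mitochondrial import chaperone. A peak at such a site cannot be assigned to 1 of the 2 genes. All 32 such members had a promoter peak in both libraries, as did 92.5% of all such genes. The median percentiles of these members, 92.6 and 98.0, were level with the 92.7 and 98.0 of all such genes, while 71.9% and 57.0% were in the top 10% in both libraries. Of the other 52 members 47 had one (90.4%), against 56.0% of such genes. Their top 10% peaks numbered 25 (48.1%), against 22.3%.

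CpG content also went along with peaks. A CpG ratio of at least 0.6 was found in 65 members (77.4%) and in 46.3% of all genes. All 65 had a promoter peak in both libraries, as did 91.8% of all genes with such a ratio, and the top 10% of peaks held 67.7% and 47.2%. Of the 19 members with a lower ratio 14 had the peak (73.7%), against 33.6%. The ratio was taken at the outermost annotated start, which for some members is not where the strongest peak lies. The part of CpG content and of shared promoters in the members' share was not tested.

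Genes that work with these subunits gave similar values. A promoter peak in both libraries was present for 41 of 42 assembly factors, Sdhaf1 being the exception, for 18 of 18 electron carriers and exchange proteins, for 13 of 13 citric acid cycle enzymes and for 11 of 11 regulators. Median percentiles in replicates 1 and 2 were 92.1 and 97.7 for assembly factors and 94.9 and 98.2 for the citric acid cycle. Of the regulators, Esrra, which encodes ERR alpha, stood at 98.6 and 99.4, Yy1 at 98.3 and 99.3, Nrf1 at 89.9 and 97.5, and Ppargc1a, which encodes PGC-1 alpha, at 71.0 and 85.2. Mitochondrial ribosomal protein genes had the peak in 78 of 78 cases with medians of 87.7 and 97.0. Cytosolic ribosomal protein genes had it in 82 of 83 with medians of 91.4 and 97.7, close to the 91.3 and 97.6 of the subunits.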

How the data were processed

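DNase-seq of 2 gastrocnemius libraries (1 group) was used, with positions on mm10 per the labels. Peaks were derived from each library's own filtered alignments, without pooling, per the file headers of the deposited README. The aligner and the caller stand as not given in the sources used here. The authors gave each peak a signal, never negative and of unstated scale, which was used to describe and rank peaks within a library's list. The deposited footprint files hold a p-value column equal to 0.01 in every row, and the authors' cut-rate files list segments with a p-value column (false discovery rate) of up to 0.05. Only the positions of footprints and segments were used. Depth is unknown, so no counting interval is given.

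The longer of the 2 peak lists of each library was used. Genes, starts and start codons came from GENCODE release M21, and sequence from RefSeq GRCm38.p6. No peak or footprint row lay past a chromosome end (0 rows). A peak or footprint was placed by its midpoint. Peaks of the libraries that overlapped by at least 1 bp were merged, which gave 49488 shared peaks. Motifs (12) were searched in the shared promoter peak of highest mean percentile. Overlapping matches of a motif on both strands counted as 1. With 1 group no test was possible. The members, gene lists, motifs and alternatives were chosen with earlier results of these data known.

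The text names members without a promoter peak in both libraries, the isoform pairs, the Atp5g genes, the 2 highest and 2 lowest of each complex by mean percentile, and the 3 with most footprints and most shared peaks in the window. Among these, 1 gene is counted but not reported here by name. Genes named for motif sequences or neighbours, and Ndufb7, Ndufb11, Atp5a1, Atp5j, Atp5j2 and the named regulators, were chosen after their values were seen. Alternatives covered the peak list, promoter width, starts used, motif window, top share and each library left out. Functions were tested on simulated data. Tables were handled with pandas 2.3.3 and numpy 2.4.6 under Python 3.11.15, sequence with pysam 0.24.0, rank correlations with scipy 1.17.1 and plots with matplotlib 3.10.9.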

Additional observations from a re-analysis of the deposited data

How the results depend on the processing

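The isoform difference stayed negative under every alternative run. The direction of members against all genes turned for 3 motifs: the E-box with 500 bp windows and without replicate 2, MEF2 with 150 and 500 bp windows (3.80% and 3.49% in the latter), and TATA with 150 bp windows, equal numbers of peaks and either library left out. The 79 members with a promoter peak in both libraries ranged from 76 to 81 under other peak lists, promoter widths and sets of starts and with either library left out. The share over all genes ranged from 54.0% to 71.4% in these runs. Among the 52 members without a coding neighbour on the opposite strand 47 had the peak (90.4%), against 56.0% of such genes. The 48 members in the top 10% in both libraries (26.6% of all genes) became 27 with the shorter lists (17.3%) and 21 at the top 5% (15.1%). Of the 52 members without such a neighbour 25 were there (48.1%), against 22.3% of such genes. In replicate 1 alone 48 members were there (26.6% of all genes), and in replicate 2 alone 78 (51.7%). The isoform difference of -4.82 became -8.40 with the shorter lists and -9.13 with equal numbers of peaks. The median of 2 shared window peaks became 6 with 50 kb flanks, where that of all genes was 4. With a library left out the peaks are those of 1 library and not shared ones. The median was then 2 in replicate 1 and 6 in replicate 2, against 2 and 5 over all genes. In brackets are the shares of members and of genes. In 150 bp windows, members with a motif were 8 for YY1 (10.1%, 3.13%), 17 for SP/KLF (21.5%, 33.3%) and 4 for ERR (5.06%, 1.04%). They were 3 for CREB (3.80%, 2.76%), 4 for the E-box (5.06%, 9.88%) and 3 for ZNF143 (3.80%, 2.40%). In 500 bp they were 18 for ERR (22.8%, 4.68%), 22 for the E-box (27.8%, 26.9%) and 3 for MEF2 (3.80%, 3.49%). They were 11 for TEAD (13.9%, 17.1%) and 5 for TATA (6.33%, 7.24%), and window length sets these counts. The restrictions to members without a neighbour and to CpG-rich members, whose median percentile was 95.1, were chosen after seeing the data. Of the alternative values 98 stayed within their limits and 20, those above, moved past them. No paired analysis was possible because the labels give 1 group. Depth is unknown and the longer list of replicate 2 limits what a peak in that library alone shows.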
